A study of Saccharomyces cerevisiae with 12 samples.

Results

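The genes described here are 36 factors of cytosolic translation in budding yeast (Saccharomyces cerevisiae), taken by name from the deposited expression table, in which 6097 features were tested. They comprise 26 initiation, 8 elongation and 2 termination factors, and each of the 36 names matched exactly 1 row. All 36 passed the filter on low values (a mean of at least 1 TPM), so none was lost before testing. Every culture was strain W303, mating type a, with can1-100, ade2-1, trp1-1, his3-11,15 and a mutant leu2, OsTIR1 expressed from the ADH1 promoter at ura3-1, and the chromosomal SCC2 gene fused to an auxin degron with 6FLAG (SCC2-AID*-6FLAG-HYG). The product of SCC2 is part of the cohesin loader, which places the cohesin ring on chromosomes, and the auxin receptor OsTIR1 directs the tagged protein to degradation. The groups differ in the pRS413 HIS plasmid: scc2-R787G-7MYC (R787G), scc2-G1242V-7MYC (G1242V), no insert (NULL in the labels, here empty vector) or SCC2-7MYC (WT), with 3 libraries each. All cultures received 1 mM auxin for 3 h, so the tagged chromosomal protein was meant to be lost in the WT cultures too. Protein was not measured here, and no culture without auxin was analysed. The growth protocol gives duplicate cultures for the empty vector strain, while 3 libraries are labelled so.

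Translation starts when eIF4F, built of the cap-binding protein eIF4E, the scaffold eIF4G and the helicase eIF4A, brings a small ribosomal subunit loaded with eIF1, eIF1A, eIF3, eIF5 and the initiator tRNA on eIF2 to an mRNA. At a start codon eIF5 triggers GTP hydrolysis on eIF2, eIF5B joins the large subunit, and eIF2B recharges eIF2 with GTP. eEF1A then delivers aminoacyl-tRNAs and is recharged by eEF1B, eEF2 and the fungal factor eEF3 move the ribosome along, and eRF1 with eRF3 releases the finished protein. Yeast makes these factors in large amounts when it grows fast.

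Values are TPM (transcript abundance per length, as a share of the library), divided by a factor per library so that the median gene is level, and are called scaled TPM below. A gene was called when limma's adjusted p was under 0.05. Fewer cells in a state that makes an mRNA and less of that mRNA per cell cannot be told apart, and since TPM is a share of the sampled RNA a change in total mRNA per cell does not show. As a check on the plasmids, SCC2 RNA stood at 86.5, 99.6 and 90.2 scaled TPM in R787G, 51.2, 93.2 and 12.4 in the libraries labelled G1242V, 12.8, 12.5 and 12.1 in empty vector and 120.1, 128 and 109 in WT. Library 3 labelled G1242V was thus at the empty vector level and library 1 between that and library 2. The plasmid marker HIS3 was at 2498, 1042 and 2779.8 in the same 3 libraries labelled G1242V, against 900.0, 845 and 796 in WT. For this reason called genes and medians that rest on the libraries labelled G1242V are also given with library 2 alone. The defining genes of mating type a fitted the label, with the 6 of them summing to 461 to 729 scaled TPM and 4 alpha-cell genes to 32.6 to 56.1. The 25S and 18S ribosomal RNA that depletion had left, as the median of 4 rows, was at 231 to 359.9 scaled TPM in R787G, 80.3 to 308 in G1242V and 241 to 321 in empty vector, against 821 to 1292 in WT. Its part in the results below was not tested.

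The 36 genes spanned a wide range of levels, and the elongation factors stood at the top. In WT the eEF1A genes TEF2 and TEF1 were at 3984 ± 142 and 2672 ± 30.2 scaled TPM (SD, n = 3), YEF3 (eEF3) at 946 ± 15.5 and EFB1 (the exchange factor subunit of eEF1B) at 576 ± 21.7. The lowest were the eIF2B genes GCN3 at 55.2 ± 1.37, GCD2 at 58.8 ± 2.22 and GCD7 at 60.4 ± 0.702. The last pair did not differ beyond their spread. Together the 36 genes took 1.21% to 1.55% of all deposited TPM per library, and the 8 elongation genes made up 63.6% to 70.7% of the members' summed scaled TPM. Within eIF3, the scaffold that binds the small subunit, the RNAs of the large subunits RPG1 (eIF3a, 2895 coding bases), PRT1 (eIF3b, 2292) and NIP1 (eIF3c, 2439) were at 88.7 ± 6.42, 73.2 ± 1.32 and 105 ± 7.78 scaled TPM in WT. Those of the small subunits TIF34 (eIF3i, 1044), TIF35 (eIF3g, 825) and HCR1 (eIF3j, 798) were at 172 ± 5.75, 152 ± 6.22 and 127 ± 14.3. Over all 12 libraries the highest value of a gene was 1.13 times its lowest for SUP45 (eRF1), the steadiest member, and 2.02 times for TIF5 (eIF5), the most variable.

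**Figure D1:**
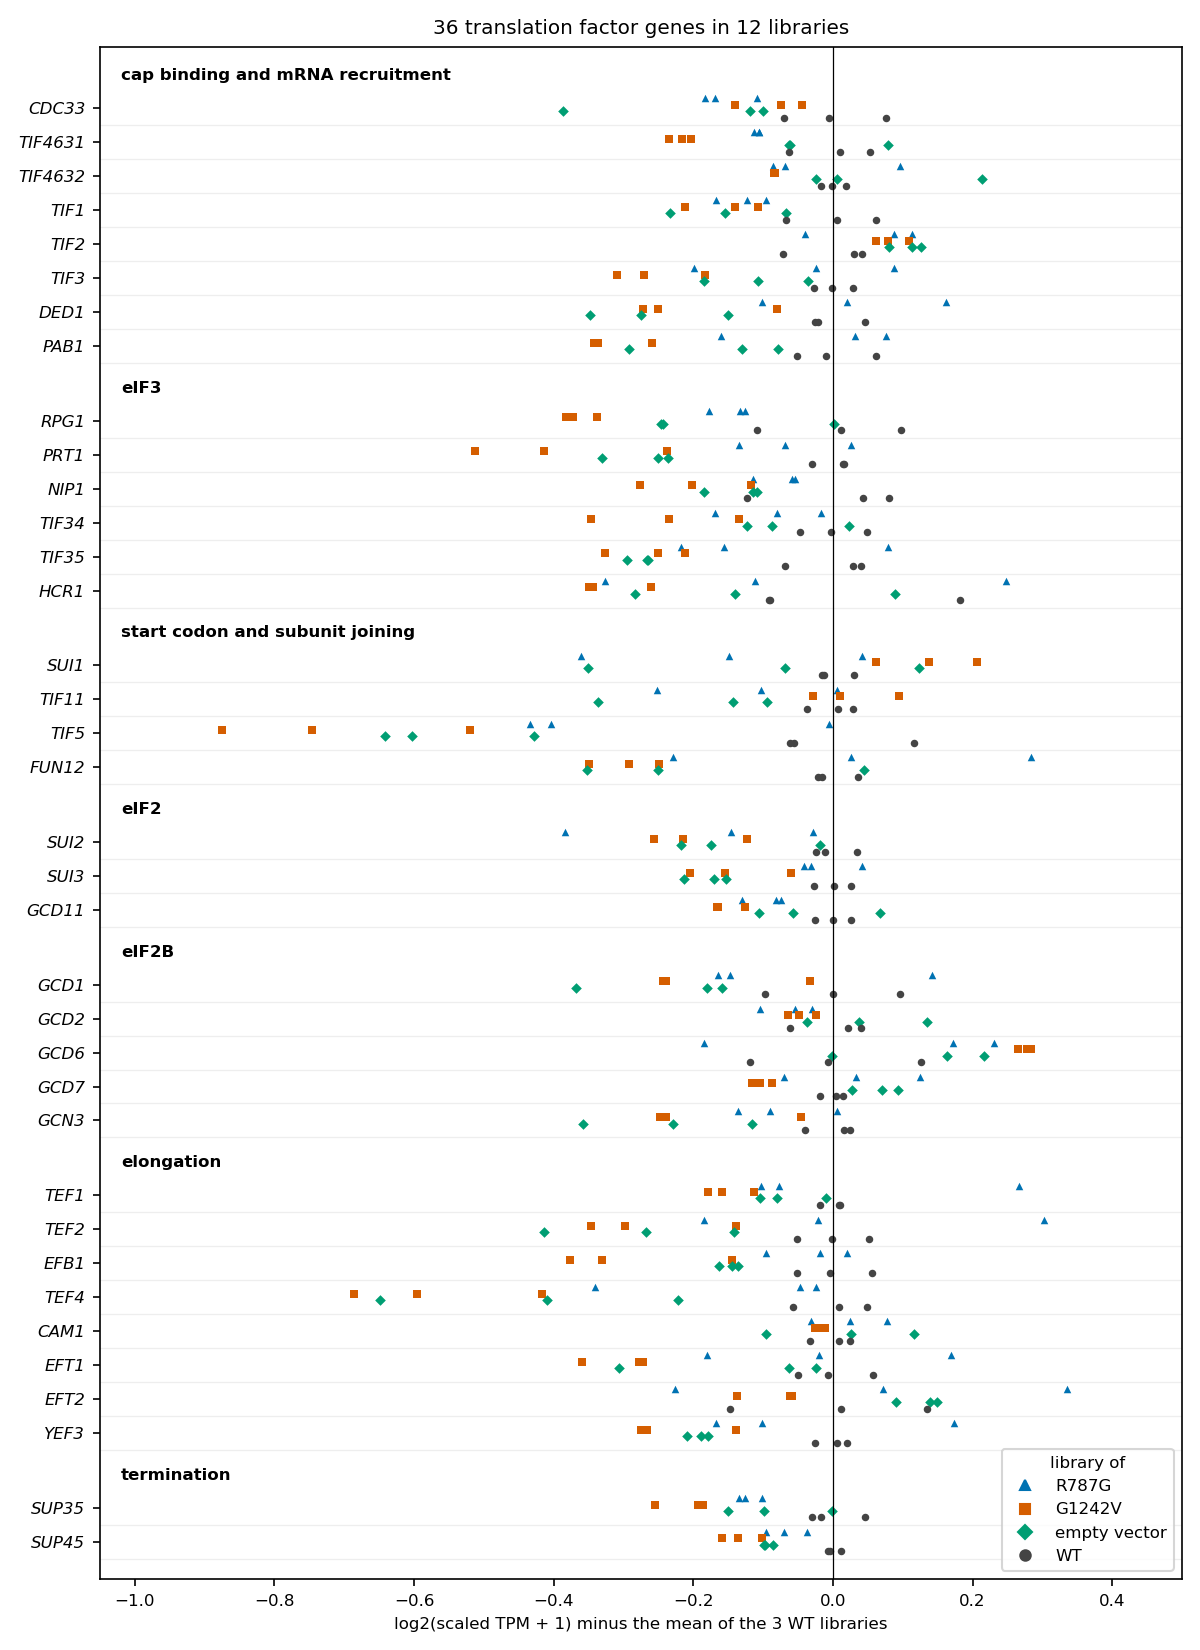
Each of the 36 genes in each of the 12 libraries, as log2(scaled TPM + 1) minus the mean of the 3 WT libraries; every point is 1 library and genes are grouped by role. TIF5 and TEF4 lie farthest to the left in the libraries labelled G1242V, while TIF2, SUI1 and GCD6 have all 3 of these libraries right of WT.

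G1242V against WT sets the libraries labelled with this substitution beside WT, and since SCC2 RNA went against the label in libraries 1 and 3, its values are not read as those of the substitution. Of the 36 genes, 4 fell, none rose and 32 did not pass. They were TIF5, PRT1, RPG1 and TEF4 (a gamma subunit of eEF1B). Across all 6097 tested features 4.58% were called, 2.59% lower and 1.98% higher. At an unadjusted p under 0.05 were 24 of the 36, where 26.9% of features were. The members had a median log2 fold change of -0.20, beside 0.01 over all tested features. In 26 of the 36 genes all 3 libraries labelled G1242V lay below all 3 WT libraries, and in 3 all lay above, where 19.6% and 20.8% of tested features did.

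TIF5 (chromosome XVI, 648704 to 649921), the GTPase activator that lets eIF2 hydrolyse GTP at the start codon, was at 39.0, 45.8 and 35.6 scaled TPM in the libraries labelled G1242V and at 63.6, 63.3 and 71.8 in WT. Every G1242V library lay below every WT library, and library 2, whose SCC2 level was highest, was the nearest to WT. TIF5 fell by 0.71 on the log2 scale (SE 0.12, limma adjusted p = 0.0157). PRT1 (chromosome XV, 1015361 to 1017652), the eIF3 subunit with an RNA recognition motif, was at 54.7, 61.9 and 51.0 against 74.0, 74.0 and 71.7 in WT (-0.39, SE 0.07, adjusted p = 0.0204 by limma). RPG1 (chromosome II, 395383 to 398277), the largest eIF3 subunit, was at 68.2, 69.8 and 67.7 against 89.3, 94.9 and 82.1 in WT (-0.36, SE 0.07, adjusted p = 0.0288 by limma). The RPG1 values of the 3 G1242V libraries lay close together, whatever their SCC2 level. TEF4 (chromosome XI, 282891 to 284455) was at 92.3, 105 and 86.6 against 141, 135 and 145 in WT (-0.57, SE 0.12, adjusted p = 0.0295 by limma).

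These calls depended on single libraries. Without library 1 or without library 3 labelled G1242V none of the 4 was called. Without library 2 all 4 were, together with EFB1, beside 5.12% of features. With library 2 alone against WT the log2 fold changes were -0.52 for TIF5, -0.24 for PRT1, -0.34 for RPG1 and -0.42 for TEF4, none of them called, and the members' median was -0.12; that lone library was assumed to vary like the other groups. Without WT library 1 no member was called, without WT library 2 only TIF5 and without WT library 3 only RPG1. The calls over all features moved with these counts: 1.12% were called without G1242V library 1, 0.0656% without G1242V library 3, 0.0492%, 0.919% and 0.82% without WT libraries 1, 2 and 3, and 0.115% with library 2 alone. Without empty vector library 3 or without R787G library 3 there were 8 called members, beside 6.79% and 6.13% of features. With only G1242V and WT in the fit there were 15, GCD6 as higher and the rest as lower, beside 13.6% of features. With TPM as deposited there was TIF5 alone, beside 0.935% of features.

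The upstream sequences of these 4 genes are shown because they were the called members, from 300 to 101 bases before the start codon (RefSeq R64, 5′ to 3′ on the gene's strand). Capitals mark TTACCCG, the core of the site of the general regulatory factor Reb1, and CACGTG, an E-box, on either strand; both were picked after these sequences had been read.
TIF5, chrXVI:648404-648603, plus strand: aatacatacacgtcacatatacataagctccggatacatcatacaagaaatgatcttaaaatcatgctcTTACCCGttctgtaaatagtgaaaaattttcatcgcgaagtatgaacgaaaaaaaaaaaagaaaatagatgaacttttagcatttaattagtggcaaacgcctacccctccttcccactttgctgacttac
PRT1, chrXV:1017753-1017952, minus strand: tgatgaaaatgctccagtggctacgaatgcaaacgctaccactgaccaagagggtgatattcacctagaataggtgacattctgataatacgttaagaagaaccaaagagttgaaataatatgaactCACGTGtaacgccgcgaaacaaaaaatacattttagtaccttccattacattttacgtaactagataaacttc
RPG1, chrII:398378-398577, minus strand: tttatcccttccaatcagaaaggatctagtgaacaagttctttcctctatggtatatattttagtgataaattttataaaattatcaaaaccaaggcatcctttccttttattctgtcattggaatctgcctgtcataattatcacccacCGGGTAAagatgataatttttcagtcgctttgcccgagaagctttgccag
TEF4, chrXI:282591-282790, plus strand: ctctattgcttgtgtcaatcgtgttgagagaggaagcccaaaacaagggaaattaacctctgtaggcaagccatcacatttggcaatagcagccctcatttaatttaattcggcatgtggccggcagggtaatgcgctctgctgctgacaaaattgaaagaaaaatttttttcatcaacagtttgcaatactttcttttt
Within 300 bases before the start codon TTACCCG occurred upstream of 10 of the 36 genes (27.8%), TIF5, RPG1, CDC33, SUI1, SUI2, SUI3, GCD2, TEF1, EFT1 and SUP45, and upstream of 7.9% of 6001 protein-coding genes. The median log2 fold change, G1242V against WT, was -0.145 for the 10 genes with it and -0.206 for the others. CACGTG occurred upstream of PRT1 and YEF3 alone (3.6% of all genes). GATGAG, the PAC element of ribosome assembly genes, occurred upstream of 8 members (22.2%, beside 19.1% of all genes). TGACTC, the site of Gcn4, and ACCCNNACA, a core of the site of Rap1, occurred in none of these windows (7.8% and 3.1% of all genes).

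By role, the 6 eIF3 genes all lay below WT in the G1242V comparison, with a median log2 fold change of -0.29, and 2 were called. Those not called ranged from -0.20 (NIP1) to -0.32 (HCR1). Of the 8 elongation genes all lay below WT, with a median of -0.24 and 1 called. Among the 8 genes of cap binding and mRNA recruitment 7 lay below WT, with a median of -0.18 and none called, led by PAB1, the poly(A)-binding protein (289, 306 and 290.3 against 364, 354 and 383 in WT, -0.31, SE 0.08). TIF4631, the major eIF4G gene, was at 109, 111 and 110.0 against 129, 133 and 122 in WT, and its values did not overlap either (-0.22, SE 0.06). The 3 eIF2 genes and both release factor genes were below WT without overlap, at medians of -0.15 and -0.17, none called. From library 2 alone the medians were -0.23 for eIF3, -0.14 for elongation, -0.10 for cap binding and mRNA recruitment, -0.12 for eIF2 and -0.15 for termination.

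Of the 4 factors of start codon recognition and subunit joining only TIF5 passed the test. SUI1 (eIF1), whose protein holds the scanning ribosome open, was at 524, 549.7 and 497 against 472, 471 and 486 in WT, above WT in every library but not called (0.14, SE 0.12). TIF11 (eIF1A) was at 238, 253 and 232 against 242, 238 and 231 in WT (0.03, SE 0.08), and the groups overlapped. FUN12 (eIF5B) was at 74.9, 80.3 and 77.9 against 94.6, 94.2 and 98.1 in WT (-0.30, SE 0.12, not called). In eIF2B, GCD6, the catalytic subunit, was at 159.7, 158 and 159 against 130.3, 143 and 121 in WT, all above WT but not called (0.28, SE 0.11). The other 4 eIF2B genes (GCD1, GCD2, GCD7 and GCN3) lay below WT, from -0.18 to -0.05. With library 2 alone for G1242V the log2 fold changes were 0.21 for SUI1, 0.10 for TIF11, -0.25 for FUN12 and 0.26 for GCD6, and the other eIF2B genes ranged from -0.12 to -0.03.

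The remaining members, CDC33 (eIF4E), TIF3 (eIF4B), GCD11 (eIF2 gamma) and SUP45 (eRF1), were called in no comparison. CDC33 had log2 fold changes of -0.15 in R787G, -0.09 in G1242V and -0.20 in empty vector, each against WT. TIF3 had -0.05, -0.25 and -0.11 in the same comparisons, GCD11 had -0.10, -0.15 and -0.03, and SUP45 had -0.07, -0.13 and -0.09. All 4 lay below WT in each of these comparisons.

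**Figure D2:**
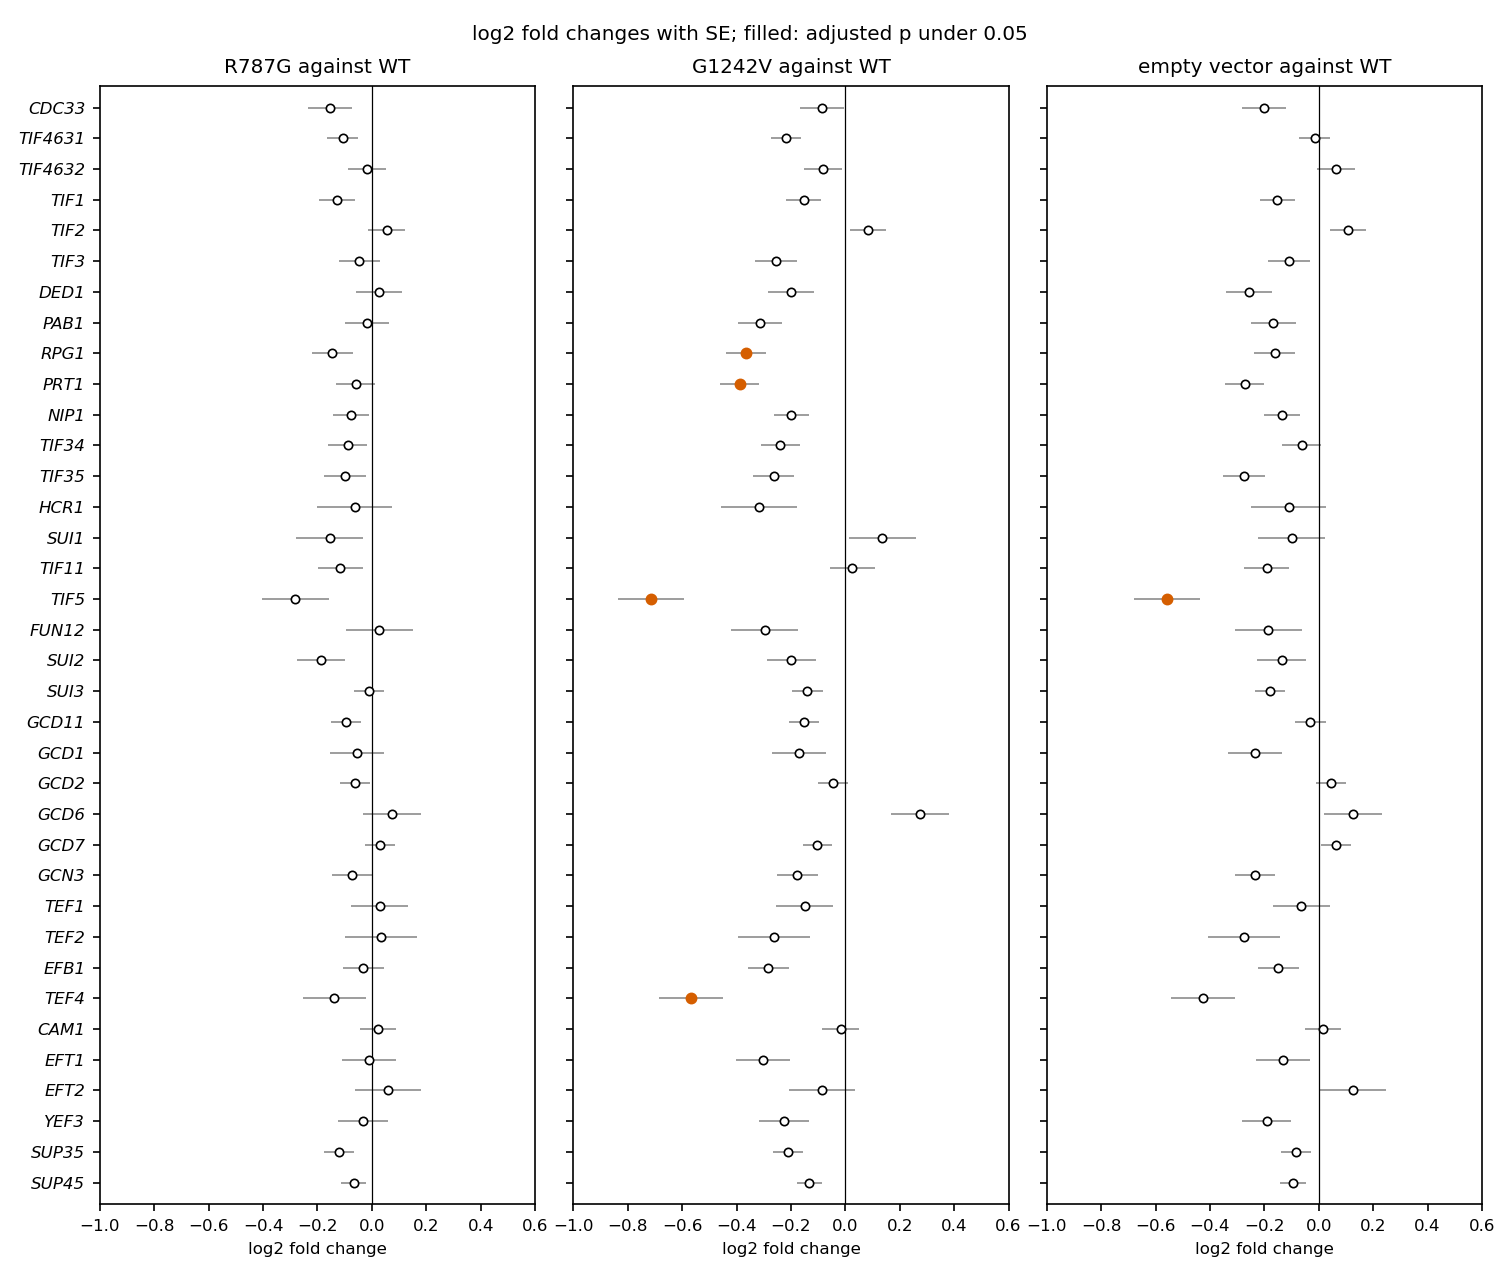
log2 fold changes of the 36 genes with their SE for R787G, G1242V and empty vector, each against WT; filled points were called by limma at an adjusted p under 0.05. The 4 called genes of the G1242V panel and TIF5 in the empty vector panel lie left of 0, and no gene is filled in the R787G panel.

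Empty vector against WT asks what loss of Scc2 does. Of the 36 genes 1 fell, TIF5, none rose and 35 did not pass, beside 2.64% of tested features called, 1.51% lower and 1.13% higher. TIF5 was at 42.0, 43.2 and 48.9 scaled TPM in empty vector and 63.6, 63.3 and 71.8 in WT, without overlap (-0.56, SE 0.12, limma adjusted p = 0.0491). The call was at the threshold: it was lost without any 1 of the 3 empty vector or 3 WT libraries, at log2 fold changes of -0.62 to -0.50, with TPM as deposited, and with the replicate number as a block (adjusted p = 0.0656 by limma). It was kept where the fit held no G1242V library (-0.56). In most of these fits the loss was not particular to TIF5. Over all features no call was left with the block, without empty vector library 2 or 3, or without any 1 WT library. The same held without R787G library 1 or 2. Other features stayed called where TIF5 was lost without empty vector library 1 (24) and with TPM as deposited (206, in place of 161). Without R787G library 3, 403 features were called. The members' median log2 fold change was -0.14, beside -0.01 over all tested features. In 16 genes all empty vector libraries lay below WT (18.4% of tested features did), and in 2, TIF2 and GCD7, all lay above (17.3%). At an unadjusted p under 0.05 were 11 of the 36, where 28.7% of features were.

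TEF4 was at 105, 89.0 and 119.9 in empty vector against 141, 135 and 145 in WT (-0.43, SE 0.12, adjusted p = 0.0667 by limma). PRT1 was at 61.4, 58.0 and 62.0 against 74.0, 74.0 and 71.7 in WT (-0.27, SE 0.07, adjusted p = 0.0610 by limma). It was called where the fit held no G1242V library, beside 3.04% of features. TIF35, which binds RNA during scanning, was at 126, 124 and 126 against 155, 145 and 156 in WT (-0.28, SE 0.08, not called). RPG1 was at 74.7, 74.5 and 88.7 in empty vector, and library 3 lay within the WT range (-0.16, SE 0.07). Library 3 of empty vector also had the lowest SCR1 share (7.07% of TPM, where the other libraries had 10.6% to 15.5%) and the largest scaling factor (1.19). With TPM as deposited the median of all features was 0.09 in this comparison and that of the members -0.04, with 22 of 36 below WT instead of 29.

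DED1, a helicase that unwinds mRNA leaders, starts 302 bases past the end of HIS3 on chromosome XV, on the same strand. HIS3 is also the marker on the plasmid, and HIS3 RNA from the plasmid and from the chromosome was not told apart. HIS3 RNA was at 3500.2, 2590.2 and 2423 in empty vector and 900.0, 845 and 796 in WT. DED1 was at 262, 228 and 239.9 in empty vector and 286, 286 and 299.98 in WT (-0.26, SE 0.08, not called). A link between these levels was not tested.

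**Figure D3:**
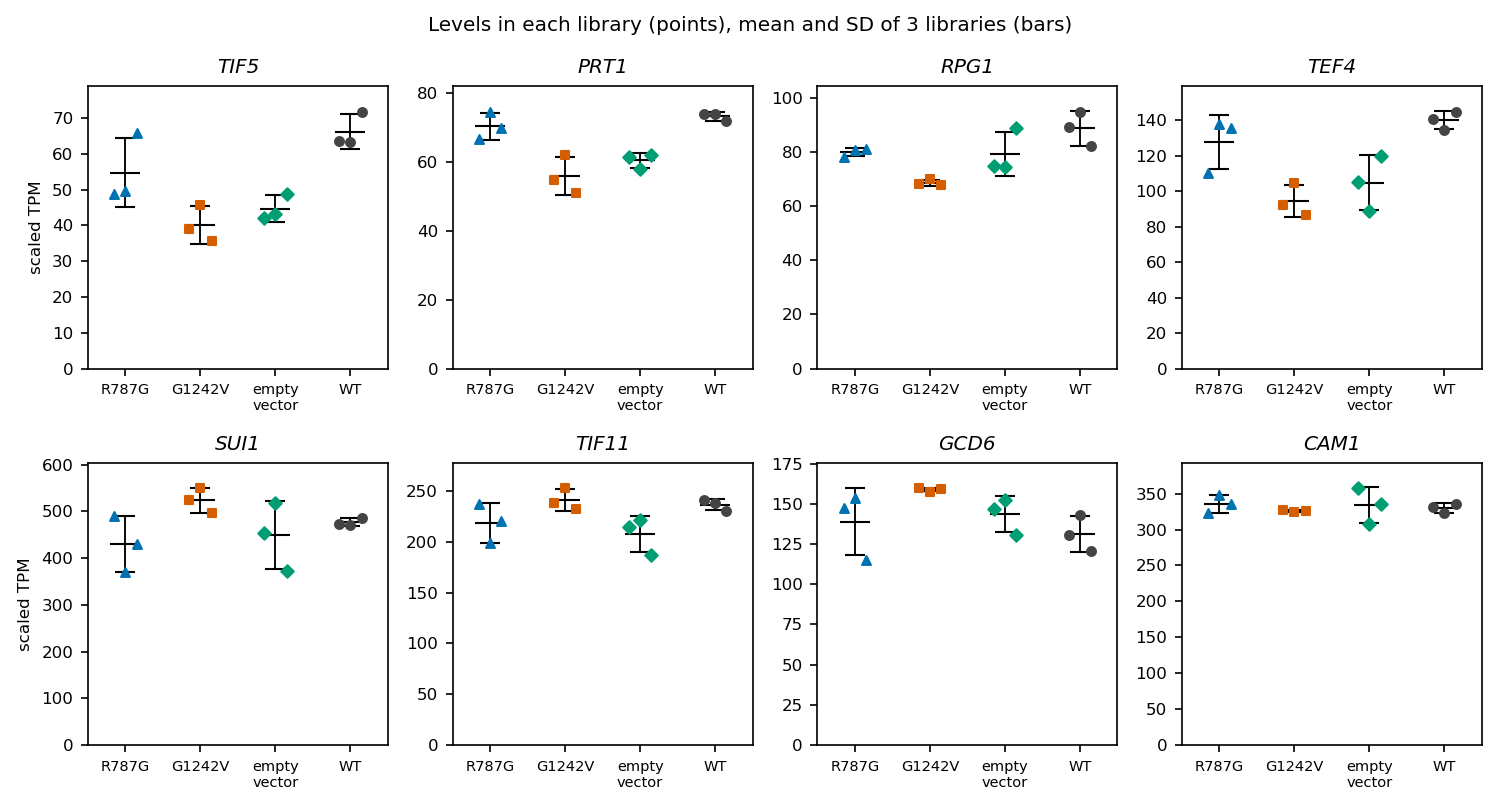
Scaled TPM of 8 genes in each library, with the mean and SD of 3 libraries. TIF5, PRT1, RPG1 and TEF4 are the called genes; SUI1, TIF11 and GCD6 are initiation factors with libraries above WT in G1242V, and CAM1 is the relative of TEF4, at 326 to 335 on average in all 4 groups.

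R787G against WT compares plasmids with and without this substitution, where the plasmid copy of Scc2 was meant to be the only stable one. SCC2 RNA was at 86.5, 99.6 and 90.2 in R787G, below 120.1, 128 and 109 in WT (-0.37, SE 0.50, not called). The substitution and this lower level cannot be told apart here. None of the 36 genes was called by limma, as none of the 6097 features was (0%); 2 members had an unadjusted p under 0.05, TIF5 and SUP35, where 6.87% of features did. TIF5 was at 48.7, 49.7 and 65.8 against 63.6, 63.3 and 71.8 in WT, with libraries 1 and 2 below WT and library 3 inside its range (-0.28, SE 0.12, adjusted p = 0.695 by limma). SUP35 (eRF3, which can form a prion) was at 112, 114 and 111 against 126, 121 and 119.5 in WT (-0.12, SE 0.05). SUI2 (eIF2 alpha, the subunit that stress kinases phosphorylate) was at 137, 116 and 148 against 155, 149 and 150.3 in WT (-0.19, SE 0.09). RPG1, at 78.3, 80.7 and 81.1 against 89.3, 94.9 and 82.1 in WT, and TIF1, at 278, 264 and 272 against 309.8, 283 and 298 in WT, completed the 5 smallest p. TIF5 apart, the groups did not overlap in these genes. All 3 R787G libraries lay below all WT libraries in 8 members and above in none, where 5.77% and 7.35% of features did. The members' median was -0.06, beside 0.00 over all tested features; it was -0.02 without R787G library 1 and -0.12 with TPM as deposited, with 34 of 36 below WT, where the median of all features was -0.05.

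Library 2 of R787G stood apart in the elongation factors. Their summed scaled TPM was 8681, 11243 and 9046 in the R787G libraries, 7868 to 8625 in G1242V, 7999 to 8902 in empty vector and 9396 to 9545 in WT. TEF2 was at 3502, 4912 and 3924 in R787G, against 3979.6, 3844 and 4128 in WT. YEF3 was at 882, 1068 and 842 in R787G, against 950.4, 959 and 929 in WT. Both were highest in library 2 of R787G. The same library had the highest SCR1 share (15.5% of TPM) and the smallest scaling factor (0.904); their part was not tested. The other 28 members summed to 4653 to 4790.3 scaled TPM in R787G, 4415 to 4723 in G1242V, 4533 to 4587 in empty vector and 4882 to 4949 in WT, so all 9 libraries of the other groups lay below all WT libraries in this sum. As deposited TPM the sum was 4208 to 4801 in R787G, 4404 to 4552 in G1242V, 4530.2 to 5436 in empty vector and 4787 to 5017 in WT, with R787G library 3 inside the WT range and empty vector library 3 above it.

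Between the groups other than WT no member was called. R787G against G1242V had 30 of 36 genes higher in R787G, with a median log2 fold change of 0.13 and -0.00 over all tested features; 14 had an unadjusted p under 0.05, where 20.1% of features did, and 0% were called. TEF4 was at 110.3, 138 and 135 in R787G and 92.3, 105 and 86.6 in G1242V. PRT1 led, at 66.6, 74.6 and 69.8 in R787G and 54.7, 61.9 and 51.0 in G1242V (0.33, SE 0.07, adjusted p = 0.117 by limma). PAB1 was at 328, 375 and 387 in R787G and 289, 306 and 290.3 in G1242V (0.30, SE 0.08), and EFB1 at 539, 584 and 569 in R787G and 458, 521 and 444 in G1242V (0.25, SE 0.07). The log2 fold change was 0.43 for TIF5 and 0.43 for TEF4 (SE 0.12 each), and in all 5 genes the groups did not overlap. With library 2 alone for G1242V the members' median was 0.08. Without library 2 labelled G1242V PRT1 was called, beside 1.18% of features, and without R787G library 1 PAB1, PRT1 and TEF4 were, beside 2.21%.

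R787G against empty vector had 7 members with an unadjusted p under 0.05 (23.1% of features) and none called (2.36% of features, 0.623% lower and 1.74% higher). The smallest p was of DED1, at 271, 325 and 295 in R787G and 262, 228 and 239.9 in empty vector (0.28, SE 0.08, adjusted p = 0.0953 by limma). PRT1, at the values given above, had a log2 fold change of 0.21, SE 0.07, TEF4 of 0.29, SE 0.12, and TIF35, at 136, 131 and 161 in R787G, of 0.18, SE 0.08. SUI3 (eIF2 beta) was at 157, 156 and 165 in R787G and 144, 143 and 138 in empty vector (0.17, SE 0.06). With TPM as deposited 25 of 36 members were lower in R787G, while with scaling 24 were higher, and the median of all features was then -0.15, so no direction is given for the members as a whole. G1242V against empty vector had 6 members with an unadjusted p under 0.05 (18.5% of features) and none called (0.148% of features, 0.0656% lower and 0.082% higher). The members' median was -0.09. It was 0.00 with library 2 alone for G1242V, -0.04 without empty vector library 3 and -0.21 with TPM as deposited, where the median of all features was -0.11 and 33 of 36 members were below. TIF4631 was at 109, 111 and 110.0 in G1242V and 122, 123 and 135 in empty vector (-0.20, SE 0.06, adjusted p = 0.139 by limma). RPG1 had a log2 fold change of -0.20, SE 0.07, without overlap. GCD7 (eIF2B beta), at 56.1, 55.6 and 56.8 in G1242V and 63.5, 61.5 and 64.5 in empty vector (-0.17, SE 0.05), and TIF34, at 146, 157 and 135 in G1242V and 162, 158 and 175 in empty vector (-0.18, SE 0.07), did not overlap either. TIF11 was the member with the smallest p among those higher in G1242V (238, 253 and 232, against 214, 222 and 187 in empty vector, 0.22, SE 0.08).

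Several factors are made from paralogous genes, and for 3 of these pairs the reads can hardly be told apart. The coding sequences of TEF2 and TEF1 differ at 2 of 1377 bases, those of EFT2 and EFT1 (eEF2) at 4 of 2529, and those of TIF2 and TIF1 (eIF4A) at 6 of 1188. Of all stretches of 50 bases, the read length, 92.5% of TEF2, 91.9% of EFT2 and 84.9% of TIF2 also occur in the partner, so most coding reads had to be divided by estimation and single-copy levels are uncertain. The first differing base of each pair is shown in capitals below, to show how little separates the copies (RefSeq R64, coding strand, coding bases counted from 1 at the A of the start codon). The substitution is C762T for TEF2 to TEF1, G447A for EFT2 to EFT1 and C60T for TIF2 to TIF1.
TEF2, chrII:478417-478447, plus strand: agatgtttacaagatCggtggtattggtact
TEF1, chrXVI:701340-701370, plus strand: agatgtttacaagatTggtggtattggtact
EFT2, chrIV:1243661-1243691, plus strand: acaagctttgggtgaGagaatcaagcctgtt
EFT1, chrXV:575529-575559, plus strand: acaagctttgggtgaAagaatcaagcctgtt
TIF2, chrX:154617-154647, minus strand: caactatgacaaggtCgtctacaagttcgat
TIF1, chrXI:555031-555061, plus strand: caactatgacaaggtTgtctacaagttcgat

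Summing each pair before the test avoids this division, and no sum was called in any of the 6 comparisons. The eIF4A sum was the most even, with 828 ± 29.9 scaled TPM in R787G, 835 ± 16.7 in G1242V, 844 ± 20.6 in empty vector and 833 ± 24.8 in WT (SD, n = 3). The single-copy estimates, subject to the division of reads, lay on opposite sides of WT, neither called. TIF1 was at 269, 275 and 256 in G1242V and 266, 252 and 283 in empty vector, against 309.8, 283 and 298 in WT. TIF2 was at 559.6, 578 and 566 in G1242V and 567, 580.0 and 585 in empty vector, against 547, 552 and 509.9 in WT. The ratio of TIF2 to TIF1 was 2.05, 2.20 and 1.92 in R787G, 2.08, 2.10 and 2.21 in G1242V, 2.13, 2.30 and 2.07 in empty vector and 1.77, 1.95 and 1.71 in WT. Only the ratio of R787G library 3 overlapped the WT ratios. The eEF1A sum was 6858 ± 1115 in R787G, 5738 ± 309.9 in G1242V, 5856 ± 394 in empty vector and 6656 ± 116 in WT. The eEF2 sum was 841 ± 119.8 in R787G, 718 ± 11.2 in G1242V, 822 ± 34.6 in empty vector and 820.5 ± 24.9 in WT, with log2 fold changes of -0.19 (SE 0.09) in G1242V and 0.00 (SE 0.09) in empty vector, each against WT.

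The single-copy estimates behind the elongation sums were as follows. TEF1 was at 2533, 3216 and 2487 scaled TPM in R787G, 2359.6, 2471 and 2394 in G1242V, 2653, 2485 and 2528 in empty vector and 2688, 2691 and 2637 in WT. TEF2 was at 3133, 3615 and 3241 in G1242V and 3608, 2989 and 3306 in empty vector, against the WT values above. In both genes all G1242V libraries lay below all WT libraries, without a call. EFT1 was at 360.5, 459.7 and 403 in R787G, 318, 337 and 338 in G1242V, 391, 330.2 and 402 in empty vector and 407, 395 and 425 in WT. EFT2 was at 431, 518 and 351 in R787G, 393, 394 and 373 in G1242V, 437, 455 and 452 in empty vector and 414, 451 and 370.4 in WT. All G1242V libraries lay below WT for EFT1, while those of EFT2 overlapped WT.

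The gamma subunit of eEF1B comes from TEF4 and CAM1, whose coding sequences are 68.6% identical and share no stretch of 50 bases, so their reads are separate. CAM1 was at 323, 348 and 335 scaled TPM in R787G, 327, 324 and 326 in G1242V, 358, 308 and 336 in empty vector and 332, 322 and 335 in WT, with log2 fold changes of -0.02, SE 0.07 in G1242V and 0.02, SE 0.07 in empty vector, each against WT. The ratio of TEF4 to CAM1 was 0.342, 0.396 and 0.404 in R787G, 0.282, 0.323 and 0.266 in G1242V, 0.294, 0.289 and 0.357 in empty vector and 0.425, 0.417 and 0.432 in WT. All 9 libraries other than WT lay below all WT libraries, and R787G library 3 came nearest. TEF4 is also 1 of 2 members with an intron, the other being EFB1, and each intron holds a snoRNA gene: snR38 (chromosome XI, 283185 to 283279) in TEF4 and snR18 (chromosome I, 142367 to 142468) in EFB1. snR38, which guides ribosomal RNA methylation, was at 31.2, 27.1 and 19.9 in R787G, 42.3, 29.5 and 36.6 in G1242V, 40.5, 37.0 and 24.3 in empty vector and 24.3, 21.997 and 21.6 in WT. It was above WT where its host was below in all 3 G1242V libraries, in empty vector libraries 1 and 2 and in R787G library 1. In empty vector library 3 the host was below WT with snR38 inside the WT range, and in R787G library 2 snR38 was above WT with the host inside. In R787G library 3 snR38 was below WT, again with the host inside. snR38 was not called (0.64, SE 0.20 in G1242V and 0.53, SE 0.20 in empty vector). snR18 was at 42.9, 45.3 and 32.7 in G1242V and 24.4, 35.6 and 40.6 in empty vector, against 36.8, 31.4 and 34.6 in WT, and overlapped WT in both. TIF4632, the minor eIF4G gene, was at 59.3, 58.7 and 66.7 in R787G, 58.8, 58.7 and 58.7 in G1242V, 62.5, 61.3 and 72.4 in empty vector and 63.1, 62.2 and 61.6 in WT. The eIF4G genes TIF4632 and TIF4631 share 58.3% of their coding bases, and their ratio was 0.502, 0.494 and 0.561 in R787G, 0.541, 0.529 and 0.534 in G1242V, 0.511, 0.5 and 0.535 in empty vector and 0.490, 0.468 and 0.503 in WT.

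**Figure D4:**
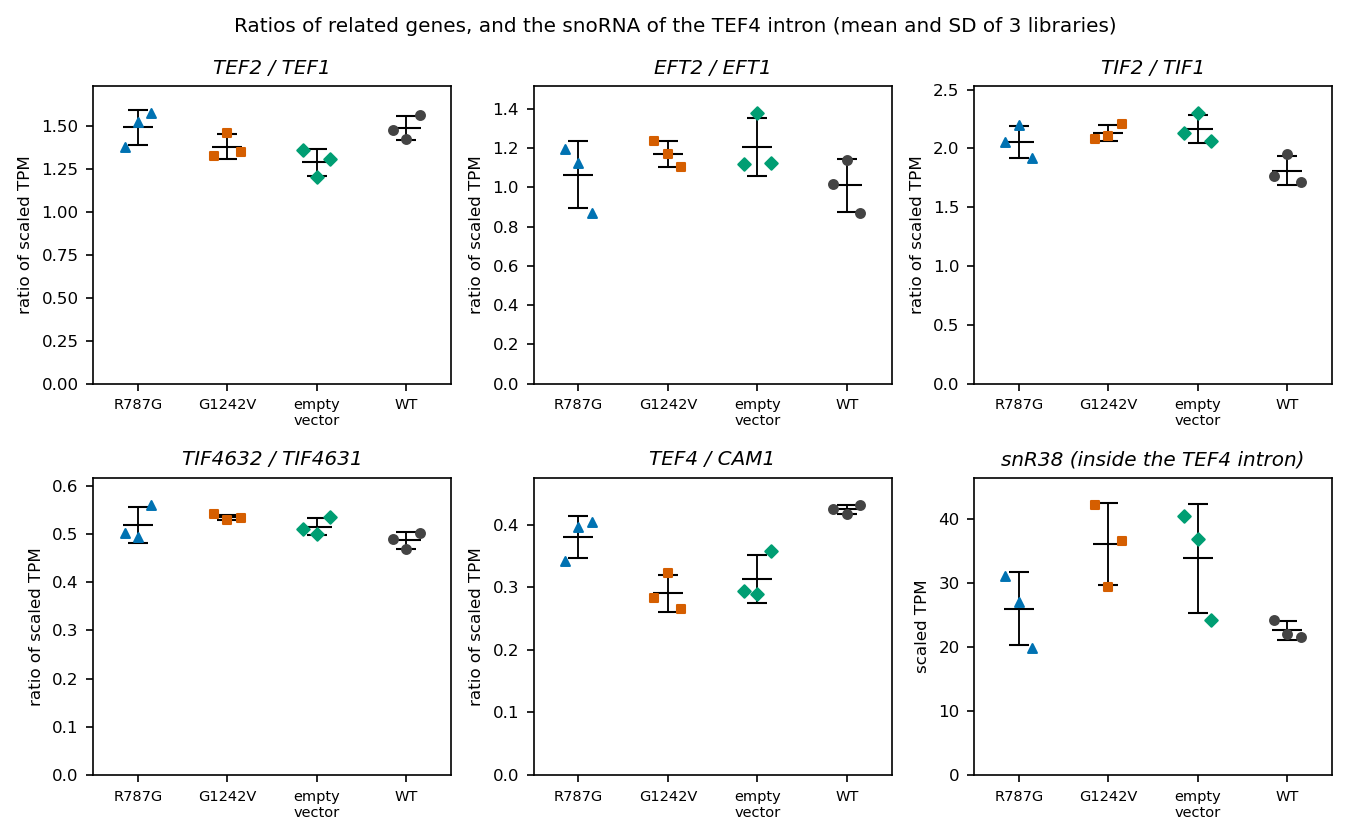
Ratios of scaled TPM of 5 related gene pairs, and scaled TPM of snR38, per library with the mean and SD of 3 libraries. The TEF4 to CAM1 ratio is 0.417 to 0.432 in WT and lower in all other libraries, while the TIF2 to TIF1 ratio is lowest in WT on average.

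Other genes of translation were taken from lists. Of 22 tested other translation factors and regulators 1 fell in G1242V against WT and none rose: GCN20, an activator of the eIF2 kinase Gcn2, at 44.5, 44.9 and 42.0 against 52.7, 51.3 and 51.7 in WT (-0.24, SE 0.05, limma adjusted p = 0.0269). Its log2 fold change with library 2 alone for G1242V was -0.20. The call of GCN20 was lost under 7 of 22 alternatives, among them library 2 alone, TPM as deposited and every fit without 1 WT library. In empty vector against WT 1 of the 22 rose and none fell: HEF3, the paralog of YEF3, at 51.7, 70.2 and 55.6 against 35.0, 42.0 and 31.4 in WT (0.70, SE 0.16, limma adjusted p = 0.0495). This call was lost under 17 of 23 alternatives, the replicate block, no filter, no variance trend and every fit without 1 of the compared libraries among them. YEF3 itself was at 829.9, 819 and 836 against 950.4, 959 and 929 in WT (-0.19, SE 0.09, not called). Of 18 cytosolic aminoacyl-tRNA synthetases 2 fell in G1242V against WT, FRS2 (-0.45, SE 0.09) and GLN4 (-0.25, SE 0.06), which charge phenylalanine and glutamine tRNAs, and none was called in empty vector or R787G against WT. In library 2 alone they had -0.38 and -0.15. The call of FRS2 was lost under 7 of 22 alternatives and that of GLN4 under 12. Both were lost with library 2 alone, with TPM as deposited and in every fit without 1 WT library. GLN4 was also not called with the replicate block or with no variance trend.

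The list medians in G1242V against WT were -0.08 for the other factors, -0.17 for the synthetases, -0.10 for 7 mitochondrial translation factors and 0.03 for 138 cytosolic ribosomal protein genes, beside -0.20 for the 36 members. With library 2 alone for G1242V they were -0.06 for the other factors, -0.12 for the synthetases, -0.07 for the mitochondrial factors and 0.11 for the ribosomal protein genes, beside -0.12 for the members. In empty vector against WT the medians were -0.01 (other factors), -0.11 (synthetases), -0.05 (mitochondrial factors) and -0.00 (ribosomal proteins), beside -0.14 for the members. In R787G against WT they were -0.05 (other factors), -0.02 (synthetases), 0.07 (mitochondrial factors) and -0.02 (ribosomal proteins), beside -0.06 for the members. Of the 138 ribosomal protein genes none was called in G1242V or R787G and 1, RPS9A, fell in empty vector, each against WT. The call of RPS9A (adjusted p = 0.0491 by limma) was lost under 13 of 23 alternatives, among them the replicate block, no filter, no variance trend and every fit without 1 of the compared libraries. These lists were not tested against the members.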

How the data were processed

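RNA from 12 cultures was depleted of ribosomal RNA and sequenced from stranded libraries as 50 bp single reads, per the labels' protocols. The authors deposited TPM; per the submitters' processing notes bcl2fastq 2.17, STAR, RSEM, edgeR and sacCer3 were used, with no role stated. TPM keeps no counts, so depth is unknown and no counting error is given. Not used were 3 rows whose values a comma in the symbol had shifted, and 1 column with no name. Stranded counting is not stated.

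Each library's TPM was scaled by its median ratio to the geometric mean over 5421 genes (factors 0.904 to 1.19). Features averaging at least 1 TPM (6097) entered the test, made on log2(scaled TPM + 1), which understates changes of low genes, with limma 3.58.1 in R 4.3.3 (variance trend, two-sided, 12 libraries in 1 fit by group, 8 residual plus 3.20 prior degrees of freedom). Benjamini-Hochberg adjustment ran over all tested features within a comparison. The method was checked on simulated data with independent noise. These held no library at odds with its group and no tie between library numbers, so they do not cover such cases. With 3 libraries a group, 0.1 is the smallest p an exact permutation test allows, so none was used. The members and lists were chosen with earlier results of these data known, and the Reb1 and E-box motifs after the promoters had been read. Values per library are given for called members, for up to 5 of smallest p where none was called, and for paralogs. Loci were matched by locus tag to RefSeq R64, the sequence assembly that sacCer3 represents; the table holds no coordinates. Coding sequences were aligned with Biopython 1.88. Library numbers paired WT with R787G by the correlation of deviations (0.329, 0.191 and 0.618) and not the other groups. In R787G against WT 0 members were called with the block and 0 without it. Alternatives covered scaling, filter, pseudocount, variance trend, the block, groups in the fit and each library left out.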

Additional observations from a re-analysis of the deposited data

How the results depend on the processing

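None of the log2 fold changes of the called members changed sign under any of 23 alternatives (22 for G1242V, which the fit without that group cannot give). For G1242V against WT the count of 4 called members was 1 with TPM as deposited, 0 with libraries 1 and 3 labelled G1242V left out, 15 with only the 2 groups in the fit, and 0 to 8 with 1 library left out (over all features 279, against 57, 7, 829, and 3 to 414): 0 without G1242V 1, G1242V 3 or WT 1, 1 without WT 2 or WT 3, and 8 without empty vector 3 or R787G 3. TIF5 was in every list of calls that was not empty, except without WT 3, where RPG1 was alone; its adjusted p ranged from 0.00943 to 0.516. For empty vector against WT the count of 1 was 0 with no filter, with TPM as deposited, with no variance trend and with a replicate block, 2 (PRT1 and TIF5) with libraries 1 and 3 or, chosen after seeing the data, all libraries labelled G1242V left out, and 0 to 2 with 1 library left out (0 to 403 over all features). It was 0 without each of the 6 libraries compared and without G1242V 1, R787G 1 or R787G 2. It was 2 without G1242V 2 (PRT1 and TIF5) or R787G 3 (TIF35 and TIF5), beside 4.87% and 6.61% of features. With all libraries labelled G1242V left out 3.04% of features were called, and 2.64% with all 12 libraries. R787G against empty vector gave 0 to 1 (DED1) and R787G against G1242V 0 to 3 with 1 library left out, the highest without R787G 1 in both. Without R787G 1 the shares called over all features were 6.87% and 2.21%, beside 2.36% and 0% with all 12 libraries. R787G against WT, G1242V against empty vector and the summed pairs gave 0 under every alternative. Library numbers correlated above 0.1 in 8 of 18 pairs, and 6 of 12 libraries correlated best with their own number. The replicate block ended every call in empty vector against WT, those of TIF5, HEF3, RPS9A, SCC2 and HIS3 among them. In G1242V against WT the block ended the call of GLN4 and kept those of TIF5, PRT1, RPG1, TEF4, GCN20 and FRS2. Over all features it left 0 of 161 calls in empty vector against WT, 207 against 279 in G1242V against WT, 68 against 144 in R787G against empty vector and 14 against 9 in G1242V against empty vector. With TPM as deposited the median of all features was 0.09 in empty vector against WT, -0.15 in R787G against empty vector and -0.11 in G1242V against empty vector; calls in the first were then 154 of 206 higher, against 69 of 161. The cause of these changes was not tested. Unknown depth limits all of them.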
